A study of Mus musculus with 8 samples.

Results

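Tight junction genes were followed in tail epidermis of mice whose keratinocytes carry a deletion in Ppp1r8, which encodes NIPP1, a protein of the nucleus that binds and controls the phosphatase PP1. The members were 9 listed genes, Cldn1, Cldn3, Cldn4, Cldn7, Cldn12, Ocln, Tjp1, F11r and Cgn, out of 46983 gene identifiers in the count table, and they were found by their symbol. RNA was sequenced from 8 mice aged 8 weeks, 1 library per mouse, as single 75 bp reads of stranded poly-A libraries. The 4 CTR mice had the genotype K14-Cre/+ Ppp1r8 fl/+ and the 4 KO mice, also called SKO, had K14-Cre/+ Ppp1r8 fl/-. All 8 mice therefore carried the Cre transgene, which is driven by the promoter of keratin 14 and is active in basal keratinocytes, and 1 floxed allele. Cells of the sheet that do not come from keratin 14 expressing cells keep the floxed allele, so in KO mice they hold 1 working copy, and keratinocytes of CTR mice keep the wild-type allele after recombination. Epidermis was peeled from tail skin after dispase, with no sorting step named in the labels, and hair follicles may stay attached to such sheets. Sex and litter are not stated in the labels. The identifier numbers of the mice fall into 4 adjoining pairs of 1 CTR and 1 KO mouse, which carry the same library number here.

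Tight junctions seal the space between neighbouring epithelial cells and, in the epidermis, form a continuous belt in the granular layer below the cornified layer. Claudins span the membrane and set which ions and molecules can pass. Occludin and the junctional adhesion molecules are further membrane proteins of the belt, and ZO proteins and cingulin form the plaque that ties them to actin and myosin. Mice without claudin-1 lose water through the skin and die soon after birth.

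The libraries held 16696212 to 21571935 counts. Ppp1r8 itself had 34.7 to 41.6 CPM in CTR and 28.4 to 47.4 CPM in KO (CPM, counts scaled to the same library size after correction for library composition), so that the groups overlapped. Its count sums reads over all exons, the deleted part is not given in the sources used here, and this count therefore does not check the genotypes. The keratinocyte genes Krt5 and Krt14 stood between 7964 and 9356 CPM and between 3761 and 4860 CPM in all 8 libraries. Of 15638 genes tested, 3700 (23.7%) differed between the groups at an adjusted p under 0.05, 11.5% higher and 12.2% lower in KO.

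Among the tight junction genes, Cldn3, Cldn12 and Cgn fell in KO epidermis, and no member rose. Cldn3, a sealing claudin, fell 2.002-fold, while the plaque gene Cgn and the claudin gene Cldn12 fell 1.27-fold and 1.249-fold. Cldn1, the most abundant member, Ocln and F11r differed by less than the spread between mice. Of the 9 members, 8 passed the filter on low counts and were tested, and Cldn7 did not. The 3 falls were 37.5% of the tested members, beside the 12.2% of all tested genes that fell. The median log2 fold change of the tested members was -0.33, beside -0.0026 over all tested genes. The groups did not overlap for 3 of the 8 tested members, the same 3 genes, beside 26.2% of all tested genes (13.3% with KO lower). At an unadjusted p under 0.05, 5 of the 8 were lower and none was higher, beside 19.2% of all tested genes lower at that level. DESeq2 likewise called 5 lower and 0 higher, where it called 27.5% of all genes (14.3% lower). With the adjoining pairs of mice as blocks, a fit added after the data were seen, 5 of the 8 fell and none rose, beside 27.6% of all genes called (14.7% lower), and the added calls were Cldn4 and Tjp1. Without CTR 2, and likewise without KO 1, the call of Cldn3 alone remained. Bulk RNA does not tell fewer cells of a type from less RNA per cell, and this holds for every value here.

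**Figure D1:**
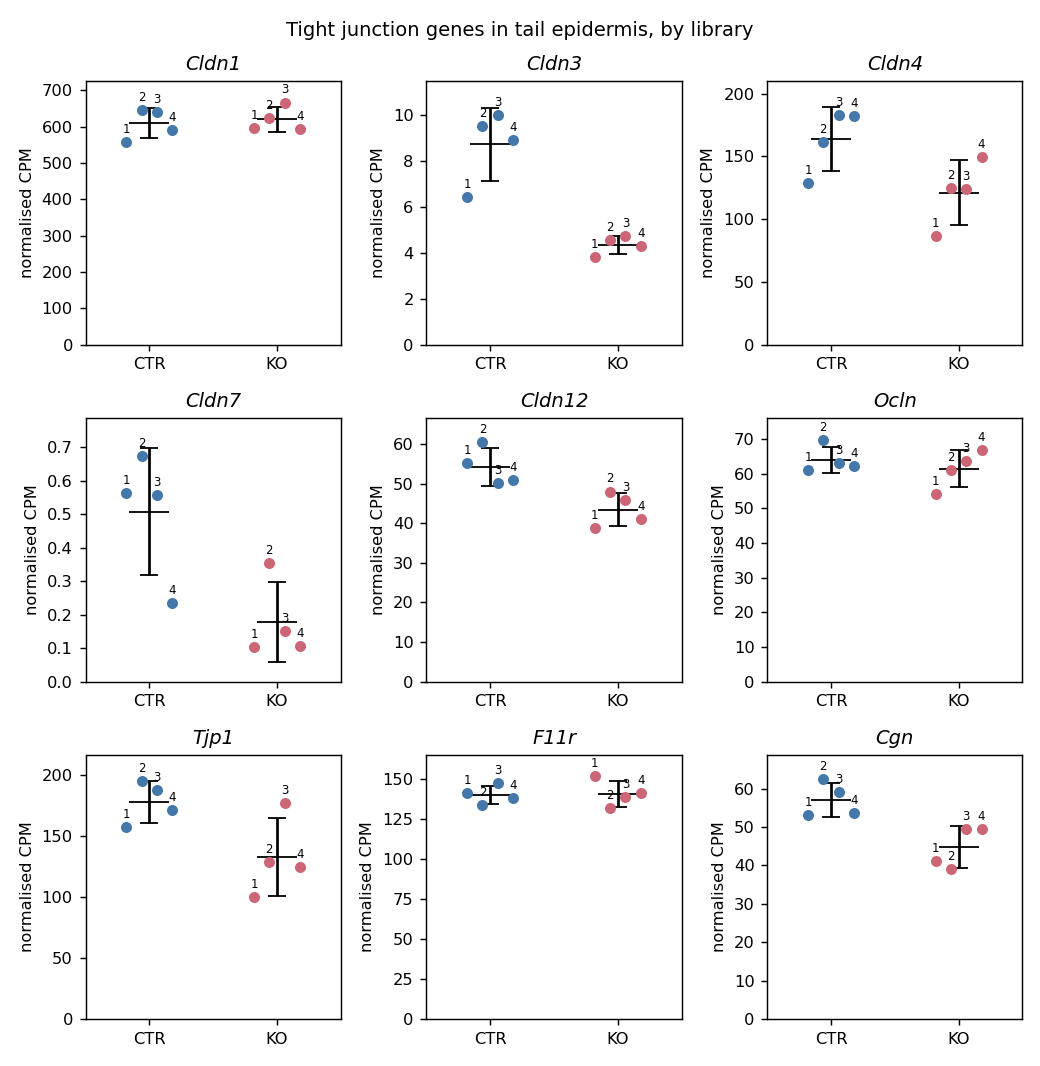
Normalised CPM of each tight junction gene (vertical axes, from 0) in the CTR and KO libraries, with library numbers beside the points, and mean and SD as bars (n = 4 each). Cldn3, Cldn12 and Cgn have every KO library below every CTR library, and Cldn1, Ocln and F11r have mixed groups.

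Cldn3 (ENSMUSG00000070473.4) and Cldn4 (ENSMUSG00000047501.3) lie 39279 bases apart on chromosome 5 and are transcribed away from each other. In GRCm38, Cldn3 spans 134986214 to 134987472 on the plus strand and Cldn4 spans 134945119 to 134946934 on the minus strand. Cgn (ENSMUSG00000068876.14) lies on the minus strand of chromosome 3 from 94760069 to 94786492. The 250 bases before the start that RefSeq lists for these 3 genes (GRCm38.p6) are shown 5′ to 3′ on the strand of the gene, because they set Cldn3, which fell, beside its neighbour Cldn4, which missed the threshold without blocks, and beside a plaque gene that fell. Capitals mark matches on either strand to an AP-1 motif (TGANTCA), a GC box of SP and KLF factors (GGGCGG), an E-box bound by Snail and ZEB factors (CAGGTG) or a TATA box (TATAAA). Matches of different motifs did not overlap in these windows.
Cldn3, chr5:134985964-134986213, plus strand: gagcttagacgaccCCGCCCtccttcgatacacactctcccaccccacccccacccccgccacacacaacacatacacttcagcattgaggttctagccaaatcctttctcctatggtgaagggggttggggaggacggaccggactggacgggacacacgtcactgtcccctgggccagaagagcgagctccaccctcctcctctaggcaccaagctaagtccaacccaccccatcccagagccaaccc
Cldn4, chr5:134946935-134947184, minus strand: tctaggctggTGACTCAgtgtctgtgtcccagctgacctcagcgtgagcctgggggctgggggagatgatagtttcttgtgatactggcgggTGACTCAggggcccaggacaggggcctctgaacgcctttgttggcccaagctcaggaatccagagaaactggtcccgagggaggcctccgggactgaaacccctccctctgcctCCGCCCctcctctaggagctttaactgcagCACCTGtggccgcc
Cgn, chr3:94786483-94786732, minus strand: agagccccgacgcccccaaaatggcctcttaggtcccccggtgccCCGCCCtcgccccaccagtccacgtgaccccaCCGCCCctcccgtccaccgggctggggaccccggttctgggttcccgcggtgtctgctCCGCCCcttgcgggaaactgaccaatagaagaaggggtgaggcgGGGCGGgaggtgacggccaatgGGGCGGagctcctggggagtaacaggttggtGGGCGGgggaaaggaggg
The Cldn3 window had 1 GC box and none of the other motifs. The Cldn4 window had 2 AP-1 motifs, 1 GC box and 1 E-box, and the Cgn window had 6 GC boxes. Each other member also had a GC box in a listed window, the uncalled Cldn1, Ocln, Tjp1 and F11r among them. F11r also had an AP-1 motif and an E-box, and Ocln had E-boxes. Among the 32851 promoter windows of this length, 32.7% held a GC box, 6.75% an AP-1 motif, 17.2% the E-box and 12.4% the TATA box. GC content was 60.8% for Cldn3, 62% for Cldn4 and 70.4% for Cgn, against a median of 52.4%. These matches describe letters only, and no binding was measured.

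Cldn3 had 6.45, 9.53, 10.0 and 8.94 CPM in CTR 1 to 4 and 3.83, 4.55, 4.76 and 4.29 CPM in KO 1 to 4. Every KO library was below the lowest CTR library. The mean went from 8.74 ± 1.58 to 4.36 ± 0.402 CPM (SD, n = 4 each), so that the log2 fold change was -1.001 (SE 0.16, adjusted p = 0.00272 by edgeR's quasi-likelihood test after Benjamini-Hochberg correction). It kept its call in all 15 alternative settings and with the pairs as blocks, with log2 fold changes of -1.12 to -0.93. In the 4 KO libraries Cldn3 stood in the same order as the summed hair follicle markers, with KO 1 lowest, then KO 4, KO 2 and KO 3. Of the other members, Tjp1 had that order in KO, and Cldn12, Cgn and the remaining members did not. The share of all tested genes in that order is not given, here or where the order is named below. In CTR the order of Cldn3 differed from that of the markers. Those markers summed to 5494 to 10534 CPM in CTR and to 218 to 3076 CPM in KO, 10 of 11 of them fell, and their part in the Cldn3 result was not tested.

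Cldn4 encodes a claudin of the granular layer. Its libraries had 129, 162, 183 and 182 CPM in CTR 1 to 4 and 86.4, 125, 124 and 149 CPM in KO 1 to 4. KO 4 was above CTR 1, so the groups overlapped. The mean was 164 ± 25.5 CPM in CTR and 121 ± 25.9 CPM in KO, a log2 fold change of -0.44 (95% interval -0.80 to -0.08) that missed the threshold (edgeR adjusted p = 0.0761). It passed without CTR 1 (log2 fold change -0.54, adjusted p = 0.0468), without KO 4 (-0.55, adjusted p = 0.0441) and in DESeq2 (adjusted p = 0.0326), over a range of 0.00472 to 0.169. Cldn4 was lower in KO in all 4 adjoining pairs, and with the pairs as blocks it passed at a log2 fold change of -0.45 (SE 0.08, edgeR adjusted p = 0.00472).

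Cldn12 (ENSMUSG00000046798.14, chromosome 5, 5489537 to 5514958, minus strand) encodes a claudin linked to calcium passage in the gut. It had 55.3, 60.5, 50.2 and 50.9 CPM in CTR 1 to 4 and 38.8, 48.0, 45.7 and 41.1 CPM in KO 1 to 4. The highest KO library, KO 2, lay just below the lowest CTR library, CTR 3. The mean fell from 54.2 ± 4.74 to 43.4 ± 4.19 CPM (log2 fold change -0.32, SE 0.09, edgeR adjusted p = 0.0313). The call ended without CTR 1, CTR 2, KO 1 or KO 4 (adjusted p = 0.0702, 0.0874, 0.0787 and 0.0828) and with library totals in place of scaling factors (0.0503), and the log2 fold change stayed between -0.37 and -0.26.

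Cldn1 (ENSMUSG00000022512.2, chromosome 16, 26356642 to 26371841, minus strand) is the claudin whose loss breaks the mouse skin barrier. It had 559, 644, 641 and 591 CPM in CTR 1 to 4 and 596, 624, 666 and 593 CPM in KO 1 to 4. The groups overlapped in part, with CTR 1 and CTR 4 below every KO library and KO 3 above every CTR library. The log2 fold change was 0.02 with a 95% interval of -0.15 to 0.20, which is a ratio of 0.901 to 1.15 (edgeR adjusted p = 0.843), and its sign turned when CTR 1 or KO 3 was left out.

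Cldn7 (ENSMUSG00000018569.12, chromosome 11, 69964779 to 69967885, plus strand), a claudin that binds EpCAM in simple epithelia, was barely detected. It had 11, 14, 9 and 5 counts in CTR 1 to 4 and 2, 7, 3 and 2 counts in KO 1 to 4, or 0.507 ± 0.189 CPM and 0.179 ± 0.119 CPM. The floor of 3 counts in a library corresponds to 0.141 to 0.186 CPM, and KO 1, KO 3 and KO 4 were at or under it. KO 2 was above CTR 4 (0.354 against 0.235 CPM), so the groups overlapped. The log2 ratio of the means was -1.51. With the count filter removed, the fit gave a log2 fold change of -1.45 (SE 0.51, edgeR adjusted p = 0.0738 over 26685 genes).

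Per length, Cldn1 and Cldn4 supplied most of the claudin transcripts. CPM values were divided by the merged exon length in kb so that genes could be compared. In CTR the order of the members was Cldn1 (126 ± 8.52 CPM per kb), Cldn4 (90.2 ± 14.0), F11r (52.5 ± 2.18), Tjp1 (22.8 ± 2.18), Ocln (15.2 ± 0.914), Cldn12 (12.8 ± 1.12), Cgn (9.48 ± 0.736), Cldn3 (6.94 ± 1.26) and Cldn7 (0.260 ± 0.0971). No neighbours in that order overlapped between libraries. The order of the means in KO was the same, with Cldn4 (66.6 ± 14.3 CPM per kb) overlapping F11r (52.8 ± 3.11) and Tjp1 (17.0 ± 4.11) overlapping Ocln (14.6 ± 1.28). Merged exons also count rarely used ones, so the level of a gene with such exons is understated.

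**Figure D2:**
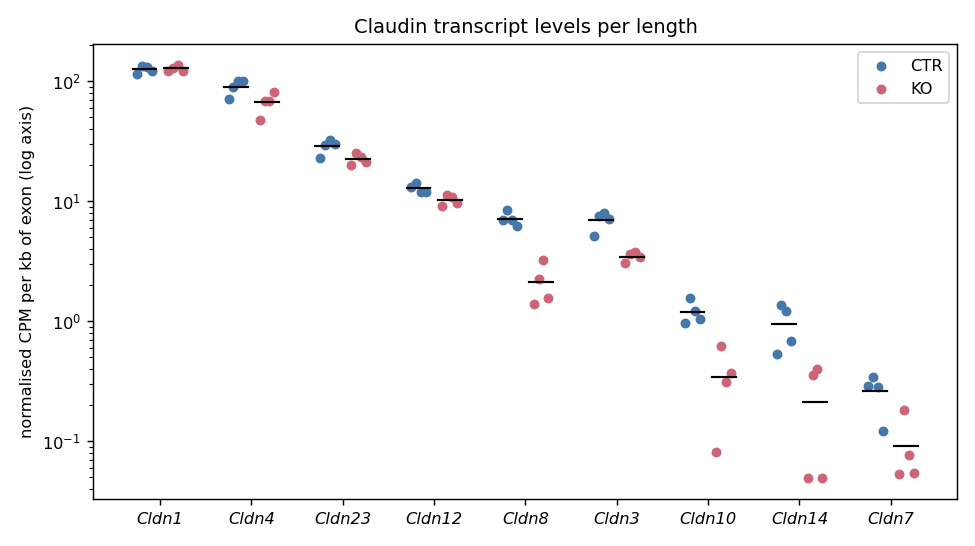
Level of each claudin gene that passed the count filter, and of Cldn7, in normalised CPM per kb of exon (log axis), with 1 point per library and a line at the group mean (CTR left, KO right). Cldn1 stands highest in both groups, and the gap between groups is widest for the low claudins Cldn8, Cldn10 and Cldn14.

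Over 23 claudin genes found in the table, Cldn1 made up 45.8% ± 2.25 of the summed CPM per kb in CTR and 54.9% ± 3.98 in KO. Cldn4 made up 32.7% ± 2.67 and 28.3% ± 4.44, and Cldn23, a claudin gene without introns, 10.4% ± 0.511 and 9.59% ± 0.682. Cldn12 held 4.70% ± 0.682 and 4.39% ± 0.282, and Cldn3 held 2.50% ± 0.238 and 1.48% ± 0.0470. The sum itself was 275 ± 26.2 CPM per kb in CTR and 234 ± 19.9 in KO. These shares are given as a description, with no test. Of the 23 genes, 7 had no count in any library.

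Ocln (ENSMUSG00000021638.12, chromosome 13, 100496507 to 100552718, minus strand) encodes occludin, the first membrane protein found in tight junctions. It had 61.0, 69.6, 63.0 and 62.3 CPM in CTR 1 to 4 and 54.2, 61.1, 63.8 and 66.9 CPM in KO 1 to 4. The groups overlapped, and the log2 fold change was -0.06 (95% interval -0.24 to 0.12, edgeR adjusted p = 0.640), with a turned sign when KO 1 was left out. F11r (ENSMUSG00000038235.4, chromosome 1, 171437535 to 171464603, plus strand) encodes JAM-A, an immunoglobulin-like adhesion molecule that binds polarity proteins. It had 141, 133, 147 and 138 CPM in CTR 1 to 4 and 151, 131, 138 and 141 CPM in KO 1 to 4. Its log2 fold change was 0.01 (95% interval -0.14 to 0.16, edgeR adjusted p = 0.955), and the sign turned without CTR 2, CTR 4 or KO 1. The intervals correspond to ratios of 0.848 to 1.09 for Ocln and 0.905 to 1.12 for F11r.

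Tjp1 (ENSMUSG00000030516.14, chromosome 7, 65296165 to 65527781, minus strand) encodes ZO-1, the plaque scaffold that binds the tails of claudins and occludin. It had 157, 195, 188 and 171 CPM in CTR 1 to 4 and 100.2, 128, 177 and 125 CPM in KO 1 to 4. KO 3 lay among the CTR libraries and the other 3 KO libraries lay below all of them. The mean was 178 ± 17.0 CPM in CTR and 133 ± 32.1 CPM in KO, a log2 fold change of -0.43 (95% interval -0.76 to -0.09) that missed the threshold (edgeR adjusted p = 0.0669). Without KO 3 it was -0.60 and passed (adjusted p = 0.00557), and DESeq2 gave an adjusted p of 0.0266, over a range of 0.00557 to 0.147. Tjp1 was lower in KO in all 4 adjoining pairs, and with the pairs as blocks it passed at -0.45 (SE 0.10, edgeR adjusted p = 0.0141). In KO and in CTR, Tjp1 stood in the order of the summed hair follicle markers, whose part in it was not tested. In CTR, Cldn1, Ocln and Cgn had the order of the markers as well, and in KO they did not.

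Cgn encodes cingulin, a plaque protein that binds ZO-1 and myosin. It had 53.2, 62.4, 59.0 and 53.7 CPM in CTR 1 to 4 and 41.0, 39.1, 49.6 and 49.5 CPM in KO 1 to 4. All KO libraries were below all CTR libraries, with KO 3 and KO 4 nearest to them. The mean fell from 57.1 ± 4.43 to 44.8 ± 5.53 CPM (log2 fold change -0.35, SE 0.10, edgeR adjusted p = 0.0298). The call ended without CTR 2, CTR 3, KO 1 or KO 2 (adjusted p = 0.0810, 0.0734, 0.0718 and 0.0811), with log2 fold changes of -0.40 to -0.28 over all alternatives.

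**Figure D3:**
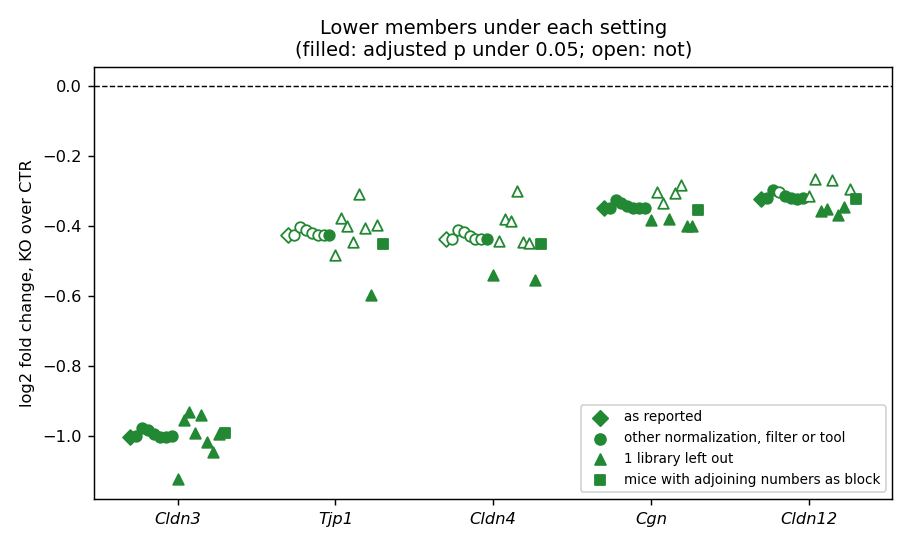
Log2 fold change, KO over CTR, of the 5 members with the lowest values, as reported (diamond), under other normalizations, filters and tools (circles) with 1 library left out (triangles) and with the adjoining pairs of mice as blocks (squares), filled where the adjusted p was under 0.05. Cldn3 stays filled throughout at -1.12 to -0.93, and the other 4 genes lie between -0.60 and -0.26 and change between filled and open.

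Of 18 claudin genes found outside the 9 members, 4 passed the count filter. Of these, 3 fell and none rose, beside 12.2% of all tested genes that fell. The count that fell was 5 without CTR 1, without KO 2 and with no count filter, where Cldn17 and Cldn23 were added. Over all genes, 1497 of 15840, 1473 of 15848 and 1880 of 26685 fell in these fits. Cldn17, at 59 counts over the CTR and 9 over the KO libraries, did not pass the count filter with all libraries. It was also called without KO 1, KO 3 or KO 4. With 1 library left out it entered the fit through its CTR counts, so those calls are no support for a fall. Cldn8, a claudin of tight epithelia such as kidney tubules, had 16.4, 20.1, 16.5 and 14.5 CPM in CTR 1 to 4 and 3.30, 5.31, 7.66 and 3.71 CPM in KO 1 to 4. The groups stood well apart, and the log2 fold change was -1.75 (SE 0.24, edgeR adjusted p = 0.00126). Cldn10, a claudin of ion-permeable junctions, went from 3.11 ± 0.708 to 0.896 ± 0.579 CPM (log2 fold change -1.78, edgeR adjusted p = 0.0125). Cldn14, a claudin gene needed for hearing, went from 2.02 ± 0.856 to 0.455 ± 0.406 CPM (log2 fold change -2.11, edgeR adjusted p = 0.0229), and its call ended without CTR 2, CTR 3 or KO 4 (adjusted p = 0.0613, 0.0579 and 0.0513). KO 1 and KO 4 each had 2 counts of Cldn14, and KO 1 had 4 of Cldn10. Both genes passed the count filter through their CTR libraries, where they were higher, so a fall was the likelier call. Their calls are therefore no support for a fall of claudin genes as a set. Cldn8 and Cldn14 in KO, like Cldn3, followed the order of the summed hair follicle markers, and Cldn10 did not. In CTR, Cldn10 and Cldn14 followed the order of the markers and Cldn8 did not, and the part of the markers in these results was not tested. Cldn23 went from 52.9 ± 7.35 to 41.5 ± 4.37 CPM and missed the threshold (edgeR adjusted p = 0.0501), and with the pairs as blocks it passed (0.0158).

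Of 22 other tested membrane and plaque genes of the tight junction, 5 were called (22.7%), near the 23.7% of all tested genes. Of 6 tested membrane genes, 1 fell and none rose. It was Lsr, the gene of the angulin that gathers proteins at corners where 3 cells meet, at 70.4 ± 8.97 CPM in CTR and 53.5 ± 4.86 CPM in KO (log2 fold change -0.40, edgeR adjusted p = 0.0226). Its call ended without CTR 3, CTR 4 or KO 4 (adjusted p = 0.0651, 0.0502 and 0.0618). Marveld2, the tricellulin gene, and Cxadr, an adhesion receptor gene, had log2 fold changes of -0.15 and 0.03. Of 16 plaque genes, 2 fell and 2 rose, and without KO 3, 4 fell, beside 2312 of 15826 genes in that fit. Cgnl1, the paralog of Cgn known as paracingulin, had 40.4, 51.4, 44.4 and 34.5 CPM in CTR 1 to 4 and 24.7, 33.7, 22.9 and 24.7 CPM in KO 1 to 4. All KO libraries were below all CTR libraries (log2 fold change -0.69, SE 0.15, edgeR adjusted p = 0.00968). Magi3, a scaffold gene of the plaque, also fell (log2 fold change -0.48, edgeR adjusted p = 0.0151). Arhgef2, the gene of the RhoA exchange factor GEF-H1 that cingulin holds at the junction, rose from 17.3 ± 2.56 to 27.8 ± 2.90 CPM (log2 fold change 0.68, edgeR adjusted p = 0.00370). Tjp3, the ZO-3 gene, rose from 56.9 ± 3.64 to 67.3 ± 4.49 CPM (log2 fold change 0.24, edgeR adjusted p = 0.0427), a call that ended with no count filter and without any 1 of the libraries but KO 2 and KO 3 (adjusted p = 0.0575 to 0.112).

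Of 24 tested polarity and adherens junction genes, whose proteins place and support the tight junction, 5 were called (20.8%), again near the 23.7% of all tested genes. Of 13 polarity genes 1 fell and 1 rose, Pard3b by -0.77 and Pard6a by 0.56 on the log2 scale (edgeR adjusted p = 0.0107 and 0.0423), and the Pard6a call ended without any 1 of the libraries but KO 3 (adjusted p = 0.0523 to 0.113). With the pairs as blocks 3 polarity genes fell, Pard6b and Dlg1 being added (edgeR adjusted p = 0.0359 and 0.0485), and in DESeq2, without CTR 1 and without KO 3, 2 fell, Dlg1 being added. Over all genes, 14.7% fell with blocks and 14.3% in DESeq2. Without CTR 1, 1497 of 15840 genes fell, and without KO 3, 2312 of 15826. Of 11 adherens junction genes, 2 fell and 1 rose. Nectin3, a cell adhesion gene, had 53.5, 60.7, 67.1 and 55.5 CPM in CTR 1 to 4 and 4.35, 18.1, 27.2 and 31.5 CPM in KO 1 to 4. KO 1 was far below the other KO libraries, and the log2 fold change was -1.54 (SE 0.42, edgeR adjusted p = 0.0254). That call ended in the robust fit (adjusted p = 0.0814) and without CTR 2, CTR 3 or KO 2 (0.0526, 0.0601 and 0.0627). Nectin4 fell by 0.22 and Ctnnd1, the p120 catenin gene, rose by 0.24 on the log2 scale (edgeR adjusted p = 0.0394 and 0.0300). The Nectin4 call ended with upper-quartile factors, with no count filter and without any 1 of the libraries but CTR 2 and KO 3 (adjusted p = 0.0636 to 0.116). The Ctnnd1 call ended with no count filter and without CTR 1, CTR 2, KO 1 or KO 4 (adjusted p = 0.0547 to 0.0803). The E-cadherin gene Cdh1 had a log2 fold change of -0.04. Of 16 tested genes for claudin partners, proteases and transcription factors, 1 fell, beside 12.2% of all tested genes. It was Spint1, the gene of the matriptase inhibitor HAI-1, from 159 ± 13.1 to 123 ± 12.5 CPM (log2 fold change -0.38, edgeR adjusted p = 0.0158). In DESeq2, without KO 3 and with the pairs as blocks 3 of these genes fell, the transcription factor genes Grhl1 and Ovol1 being added (edgeR adjusted p = 0.0443 and 0.0470 with blocks), and the robust fit added Ovol1. The falls over all genes in DESeq2, without KO 3 and with blocks are given above. In the robust fit 1866 of 15638 genes fell. Epcam, whose protein binds claudin-7, had a log2 fold change of 0.11 (edgeR adjusted p = 0.475). Over the 6 lists, 10 of 66 tested genes fell (15.2%, beside 12.2% of all tested genes) and 4 rose (6.06%, beside 11.5%). The 10 include Cldn10 and Cldn14, which passed the count filter through their CTR libraries. The share that fell is therefore no support for a fall over these lists.

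**Figure D4:**
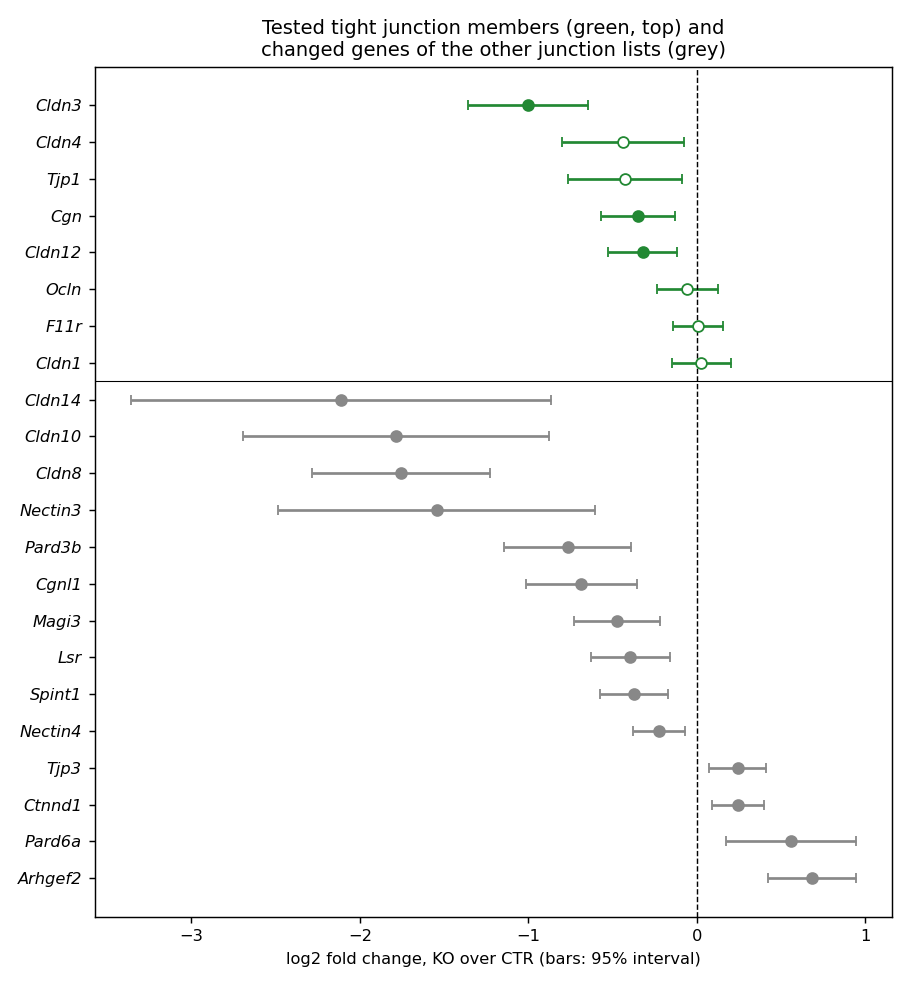
Log2 fold change, KO over CTR, with 95% interval, for the 8 tested members (green, filled where called, open where not) and for the 14 called genes of the other junction lists (grey). Cldn14, Cldn10, Cldn8 and Nectin3 lie at -2.11 to -1.54, Cldn3 at -1.001, and Arhgef2 at 0.68 is the highest.

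Layer markers and markers of other cells differed between the same libraries. The counts of called markers stand beside 11.5% of all tested genes that rose and 12.2% that fell. Of 7 granular layer genes, where the tight junction belt lies, Lor and Tgm3 rose (log2 fold change 0.83 and 0.47) and none fell. The other 5 were not called, with log2 fold changes of -0.30 to 0.19, and the median of the 7 was 0.10. Of 6 basal genes 4 fell, and of 5 spinous genes 2 rose and 1 fell. All 6 genes of the Langerhans cell list rose, with a sum of 140 to 198 CPM in CTR and 247 to 369 CPM in KO. Of that sum Cd207, the langerin gene, held 4.34 ± 0.668 CPM in CTR and 7.51 ± 1.55 CPM in KO. Of 5 melanocyte markers 4 rose, and of 6 sebaceous markers 3 rose. Of 4 tested T cell markers 3 rose, with sums of 8.60 to 14.5 CPM in CTR and 15.6 to 28.5 CPM in KO. Cd3e and Trdc, with 12 and 21 counts over the CTR libraries, passed the count filter through KO, where they were higher. Their calls are therefore no support for a rise. Most of each sum was Trbc2, at 8.79 ± 2.18 CPM in CTR and 16.2 ± 4.30 CPM in KO. Endothelial markers summed to 1.37 to 3.03 CPM in CTR and 1.00 to 2.07 CPM in KO, and the endothelial claudin gene Cldn5 had at most 0.205 CPM in any library. Fibroblast markers summed to 33.8 to 52.7 and 17.5 to 56.1 CPM, and macrophage markers to 12.9 to 18.1 and 17.1 to 21.3 CPM, with none called in either list. Muscle and nerve markers summed to 1.60 to 6.88 and 2.003 to 18.3 CPM, the highest value being KO 4. No marker of these lists was at 0 in all 8 libraries. The part of these cells in the results on tight junction genes was not tested.

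Of 46 different tested genes within 100 kb of a member, 12 were called (26.1%), near the 23.7% of all tested genes. The 46 include the members Cldn3 and Cldn4, which are neighbours of each other. Among them, 2 of 5 fell for Cldn4, namely Cldn3 and Mettl27, and Mettl27 was also the only 1 of 8 that was called for Cldn3. Mettl27, a methyltransferase-like gene, fell from 10.99 ± 1.69 to 6.48 ± 0.982 CPM (log2 fold change -0.76, edgeR adjusted p = 0.00718). Of 5 neighbours of Cgn, Selenbp2 fell (log2 fold change -1.57, edgeR adjusted p = 0.000487), and of 3 neighbours of Cldn12, the kinase gene Cdk14 fell (log2 fold change -1.08, edgeR adjusted p = 0.0170). Of 16 neighbours of Cldn7, Acap1, Slc2a4, Dlg4 and Gps2 rose, and of 9 neighbours of F11r, Pfdn2 and Arhgap30 rose and Nectin4 and Alyref2 fell. None of 4 neighbours of Ocln was called, and Cldn1 and Tjp1 had no tested neighbour. Antisense Wbscr25 overlaps the end of Cldn3 and had 6 counts over all 8 libraries.

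The genes whose log2 CPM over the 8 libraries was most like that of Cldn3 were Eif2b3, a translation factor subunit gene (Pearson r = 0.988), Tspan6, a tetraspanin gene (0.987), and Wdr11 (0.985). For Cldn12 they were Farp1 (0.984), Vwa2 (0.983) and the tight junction scaffold gene Mpdz (0.982). Mpdz missed the threshold and passed with the pairs as blocks (log2 fold change -0.47, edgeR adjusted p = 0.0210). For Cgn they were Ttf2 (0.974), Slc16a5 (0.969) and Lrrc31 (0.968). These values describe 8 libraries that share the difference between the groups, and the genes are the closest of 15638.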

How the data were processed

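The authors deposited raw read counts per gene for 46983 Ensembl identifiers, 1 column per mouse, with no normalization. STAR 2.4.1d, featureCounts 1.4.6 and edgeR 3.8.6 were among the tools and GRCm38 was the build, per the submitters' processing notes. The annotation release, strand setting and treatment of multi-mapping reads are not given in the sources used here, so reads shared with overlapping genes may be counted in either. Columns were matched to mice by the identifier in the labels, and replicate numbers only name libraries. Ranked by number, the identifiers in the labels form 4 adjoining pairs of 1 CTR and 1 KO mouse, with no pairing, shared litter or day stated. Deviations from the group means over the tested genes correlated at 0.301, 0.400, 0.152 and 0.205 within these pairs, so a fit with the pairs as blocks was added after the data were seen. Symbols, positions and exon lengths came from GENCODE M21 (GRCm38), which held 46488 of the identifiers. Promoter sequences came from RefSeq tables (GRCm38.p6), and all 9 members matched.

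The test was the quasi-likelihood test of edgeR 4.0.16 under R 4.3.3 (glmQLFit, glmQLFTest, two-sided, group as the only term, TMM scaling). filterByExpr kept 15638 genes, over which p-values were Benjamini-Hochberg adjusted (threshold 0.05). The script was tested on simulated data. Intervals of fold changes (95%) use the standard error and the moderated degrees of freedom. Levels are normalised CPM, group values are means ± SD. Libraries of a group differed by more than sampling noise in every pair. Floors cover counting error only, as reads carried no molecular identifiers.

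Members, lists and tests were chosen with earlier results of these data known. Named genes were the 9 members, every called gene of 6 other junction lists, the 3 genes most like each called member and called neighbours within 100 kb. Marveld2, Cxadr, Cdh1, Epcam, Cldn5, Cldn17, Cldn23, Pard6b, Dlg1, Grhl1, Ovol1, Krt5, Krt14, Lor, Tgm3, Cd207, Cd3e, Trdc and Trbc2 were named after their values were seen. The 15 alternatives were relative log expression factors, upper-quartile factors, library totals, no count filter, a filter of at least 1 CPM in 4 libraries, a robust fit, DESeq2 1.42.0, and leaving out each of 8 libraries. Results for some genes of these lists are not reported here.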

Additional observations from a re-analysis of the deposited data

How the results depend on the processing

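Among the tested members, Cldn3 kept its direction and call in all 15 alternatives. DESeq2 called 5 members lower in place of 3, adding Cldn4 and Tjp1, and leaving out 1 library gave 1 to 4 members lower. The lowest count, 1, came without CTR 2 or without KO 1, where Cldn3 alone was called. No alternative called a member higher. The counts over all genes stayed within 1.5 times, at 1253 to 2076 higher and 1336 to 2312 lower, and no scaling moved the median of all genes by more than 0.0254 (log2). The near-zero members Cldn1, Ocln and F11r turned sign in 2, 1 and 3 of the 8 fits that leave out 1 library. In these fits Cldn1 ranged from -0.0153 to 0.0537, Ocln from -0.0984 to 0.0038 and F11r from -0.0261 to 0.0422 on the log2 scale. Their adjusted p-values stayed at 0.473 or above. The cause was not tested. With 4 libraries per group, changes of the size seen for Cldn12 and Cgn were called or missed depending on the library left out, and Cldn7 lies near the floor of detection. The paired analysis, with mice of adjoining numbers as a replicate block, called 5 members lower, 2297 genes lower and 2016 higher, and ended no call of a member or of the 14 called genes of the other lists. KO 3 correlated slightly better with CTR 2 (0.162) than with CTR 3 (0.152), and the pairing is read from the identifiers alone.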
